A study of Mus musculus with 24 samples.

Results

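Chromosomes 1, 7 and 12 of mouse dermal fibroblasts carried broad domains of lamin A/C, lamin B1 or LAP2alpha in ChIP-seq. They held almost none of the small enriched islands that the same libraries showed elsewhere. The members were all domains of the enriched domain detector (EDD) and all islands of SICER on these 3 chromosomes in 12 libraries, 887 of 3486 domains and 764 of 87065 islands. The 3 chromosomes are 197, 153 and 121 Mb long and hold 3990 of 22208 protein-coding genes. The chromosomes were chosen by their low number of SICER islands, so the island numbers that follow describe that choice. The label held for chromosomes 1 and 7 in all 12 libraries, while chromosome 12 lacked islands in WT cells only.

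The cells were immortalized mouse dermal fibroblasts, either Lap2alpha -/- (KO) or Lap2alpha +/+ (WT), cross-linked with formaldehyde and sonicated for 30 or 12 cycles. Lamin A/C was precipitated from KO and from WT cells with antibody N18 against its N terminus or 3A6 against its C-terminal Ig fold, at both sonications, which made 8 libraries. LAP2alpha and lamin B1 were precipitated from WT cells alone, at both sonications, which made the other 4. Each group holds 1 library, so no difference below has a replicate check, and no p-value or SD could be given. No label says that more than 1 line was used per genotype, so genotype and cell line cannot be told apart. Region lists hold no transcript levels, so neither the deletion nor the fibroblast identity of the cells could be checked in them. Short fragments were selected for sequencing, so chromatin left in long fragments was not read.

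The nuclear lamina is a meshwork of A-type and B-type lamins under the inner nuclear membrane, and it holds gene-poor, mostly silent heterochromatin in lamina-associated domains. Lamin B1 stays in this peripheral meshwork, whereas part of lamin A/C is mobile in the nuclear interior, where LAP2alpha, a splice form of Tmpo without a membrane anchor, binds it. EDD looks for very long stretches in which ChIP reads modestly exceed the input. SICER looks for clusters of enriched small windows, so a broad, shallow gain in reads can make a domain without making an island. Whether the domains described here are of that kind was not tested.

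The libraries held 3989494 to 13601739 reads inside islands genome-wide, of which 0.198% to 1.82% lay on chromosomes 1, 7 and 12. The 4 KO libraries held the 4 highest shares, 1.13% to 1.82%, against 0.198% to 0.443% in the 8 WT libraries. The 12 libraries were run on 5 flow cells. KO and WT libraries of the same antibody and sonication shared a lane, whereas for LAP2alpha and lamin A/C each sonication had its own flow cell, so the 2 cannot be told apart. Libraries of the same genotype and sonication were called against the same input, 4 inputs in all.

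The few places on these chromosomes where SICER did call islands are shown by 4 stretches of 300 bases, read from the NCBIM37 (mm9) genome on the plus strand. Capitals mark bases within 31-base words that occur more than once on the same chromosome, on either strand, and lower case marks the rest. For each chromosome the stretch lies at or near the middle of the island with the most reads, at least 500 bases from any annotated exon. The second chromosome 1 stretch comes from the repeated locus described next and was chosen after its values were seen.
Chromosome 1 island, chr1:90150633-90150932: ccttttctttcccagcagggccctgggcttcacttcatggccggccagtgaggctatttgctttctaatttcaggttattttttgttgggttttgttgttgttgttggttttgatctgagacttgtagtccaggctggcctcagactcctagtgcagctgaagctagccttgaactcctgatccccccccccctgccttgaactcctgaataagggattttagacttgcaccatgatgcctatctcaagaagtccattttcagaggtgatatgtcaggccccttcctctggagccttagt
Chromosome 1 repeated locus, chr1:85267642-85267941: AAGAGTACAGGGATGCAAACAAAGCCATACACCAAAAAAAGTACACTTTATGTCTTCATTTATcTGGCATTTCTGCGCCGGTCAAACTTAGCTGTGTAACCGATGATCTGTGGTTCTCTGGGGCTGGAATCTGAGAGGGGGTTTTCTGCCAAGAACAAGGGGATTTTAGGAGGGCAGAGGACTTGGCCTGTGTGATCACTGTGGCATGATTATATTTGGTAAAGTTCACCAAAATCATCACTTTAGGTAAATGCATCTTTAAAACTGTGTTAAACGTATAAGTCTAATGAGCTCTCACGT
Chromosome 7 island, chr7:46537351-46537650: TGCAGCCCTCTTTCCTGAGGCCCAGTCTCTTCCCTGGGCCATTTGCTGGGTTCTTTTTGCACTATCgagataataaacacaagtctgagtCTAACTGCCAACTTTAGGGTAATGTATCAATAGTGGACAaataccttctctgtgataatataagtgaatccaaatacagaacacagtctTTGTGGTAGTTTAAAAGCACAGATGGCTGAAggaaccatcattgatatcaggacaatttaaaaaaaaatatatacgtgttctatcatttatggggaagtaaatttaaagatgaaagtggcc
Chromosome 12 island, chr12:116016851-116017150: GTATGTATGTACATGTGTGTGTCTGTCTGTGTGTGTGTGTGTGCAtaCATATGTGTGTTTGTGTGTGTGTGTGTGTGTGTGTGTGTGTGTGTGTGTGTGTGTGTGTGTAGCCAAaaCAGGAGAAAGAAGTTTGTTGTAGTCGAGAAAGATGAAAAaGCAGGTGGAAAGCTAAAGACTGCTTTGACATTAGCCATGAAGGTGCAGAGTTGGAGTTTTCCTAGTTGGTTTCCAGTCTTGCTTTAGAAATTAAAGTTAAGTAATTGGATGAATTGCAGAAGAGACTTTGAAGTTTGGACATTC

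The chromosome 1 island spanned 102 kb in N18 KO cells at 30 cycles, with 15870 reads, or 156 reads per kb. Its stretch is an intronic part of Heatr7b1, and none of its 300 bases are in capitals. The island belongs to the locus chr1:90101001-90212000, which holds the Ugt1a cluster, genes of UDP-glucuronosyltransferases that conjugate steroids, bilirubin and drugs, beside Hjurp and the cold receptor gene Trpm8. Islands were called there in all 12 libraries.

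Read by library, this locus held 15870 reads in KO and 11278 in WT with N18 at 30 cycles, and 7314 in KO and 6224 in WT with N18 at 12 cycles. With 3A6 it held 14335 reads in KO and 10503 in WT at 30 cycles, and 7388 in KO and 6121 in WT at 12 cycles. LAP2alpha gave 13398 reads at 30 and 6454 at 12 cycles, and lamin B1 gave 11107 at 30 and 11012 at 12 cycles. All 4 antibodies thus gave islands at the same place, with 58.9 to 156 reads per kb, and the locus lay in a domain in only 5 of the 12 libraries.

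Of 35 island loci on chromosome 1, 3 were called in all 12 libraries and 5 in at least 10. The other 2 of all 12 libraries were chr1:85227001-85307000, beside C130026I21Rik, with 24.4 to 64.9 reads per kb, and chr1:87480001-87493000 at Sp110, a nuclear body gene, with 50.1 to 127 reads per kb. In the repeated locus beside C130026I21Rik, 72.0% of 31-base words recurred on the chromosome, and 299 of the 300 bases shown are in capitals. The share was 55.6% at Sp110 and 3.44% at the Ugt1a locus, against 12.3% over the whole of chromosome 1. The 3 loci seen in every library therefore differ in how repeated their sequence is.

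Chromosome 7 had 7 island loci, of which 1, chr7:46504001-46571000, was called in 11 libraries. Its island in N18 KO cells at 30 cycles spanned 65 kb, with 4110 reads or 63.2 per kb, and the nearest protein-coding gene, Gm16387, was 17447 bases from the stretch shown. Recurring words made up 43.8% of this locus, against 18.8% of chromosome 7, and 136 of the 300 bases are in capitals. The locus lay in a domain in 1 library.

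By islands per WT library, chromosome 12 had 0 to 5 (median 1), chromosome 7 had 1 to 5 (median 2.5) and chromosome 1 had 4 to 14 (median 7.5). The nearest chromosome outside the set was chromosome 4, with 18 to 289 islands (median 49), followed by chromosome 16, with 2 to 99 (median 52). As a share of length, islands covered a median of 0.00619% of chromosome 12, 0.0406% of chromosome 7 and 0.114% of chromosome 1 in WT, against 0.580% of chromosome 4. In KO, chromosome 7 again had 2 to 4 islands and chromosome 1 had 6 to 16, but chromosome 12 had 79 to 228. Chromosomes 13 and 10, which are outside the set, had as few as 0 islands in a KO library, with 0 to 24 and 0 to 44.

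The 3 chromosomes had domains although they had few islands. With LAP2alpha at 30 cycles, 52 domains covered 66.1% of chromosomes 1, 7 and 12 together, against 15.6% of the other 17 chromosomes. With LAP2alpha at 12 cycles, 73 domains covered 32.1%, against 16.4%. At 30 cycles the 3 chromosomes were the most covered of all 20, in the order 12, 1 and 7.

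Lamin B1 domains covered 43.8% of the 3 chromosomes at 30 cycles, against 34.5% of the other 17, and 24.1% at 12 cycles, against 15.3%. Lamin A/C differed less at 30 cycles. With N18, domains covered 18.9% against 17.7% in KO, and 9.33% against 8.98% in WT. With 3A6 they covered 19.1% against 18.9% in KO, and 19.9% against 22.5% in WT, the only library with less coverage on the 3 chromosomes than on the other 17. At 12 cycles the lamin A/C gap was wider with both antibodies, and no smaller than that of lamin B1, as N18 covered 26.9% against 13.6% in KO and 22.6% against 13.7% in WT, and 3A6 covered 26.7% against 11.9% in KO and 24.7% against 13.0% in WT.

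**Figure D1:**
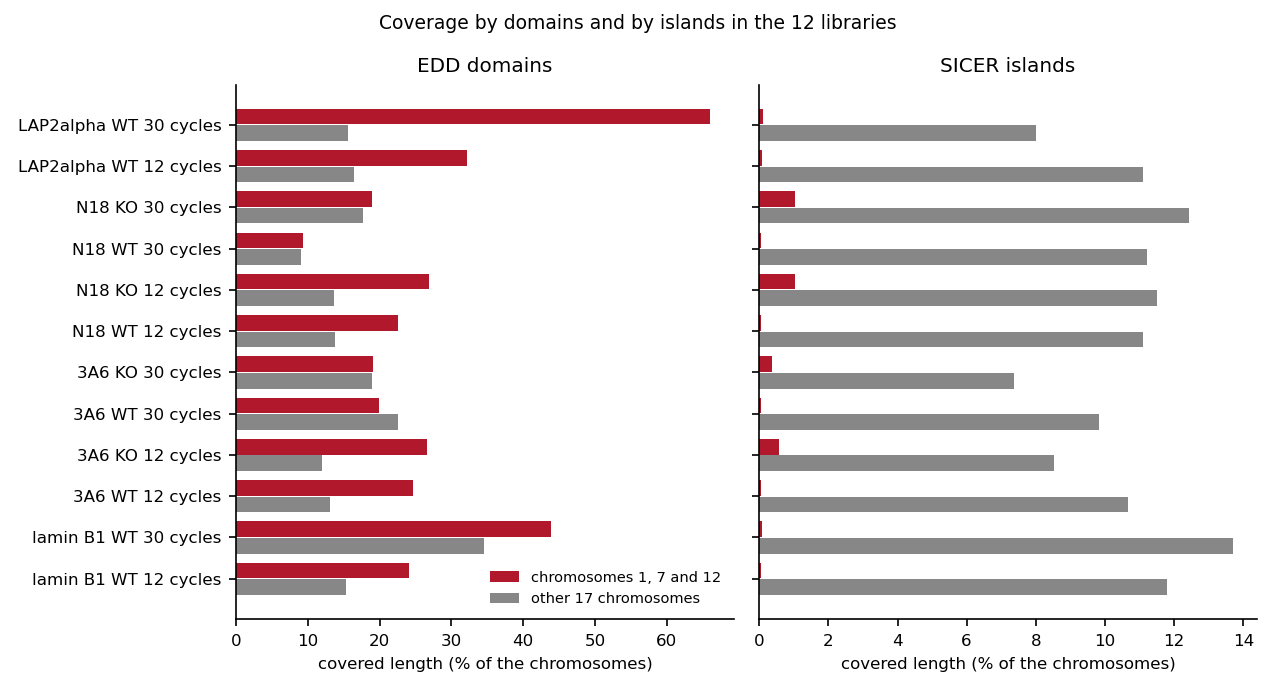
Share of chromosome length in EDD domains (left, percent) and in SICER islands (right, percent) for chromosomes 1, 7 and 12 (red) and the other 17 chromosomes (grey), 1 pair of bars per library. Domain coverage of the red bars exceeded that of the grey bars in 11 of 12 libraries, while red island bars reached at most 1.04%.

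The domains on these chromosomes seldom held an island, except on chromosome 12 in KO. With LAP2alpha, 7 of 52 domains held one at 30 cycles and 5 of 73 at 12 cycles, which is 13.5% and 6.85%, against 85.9% and 97.8% on the other 17 chromosomes. In WT lamin A/C libraries the share was 1.82% with N18 at 30 cycles, 0% with 3A6 at 30 cycles, 5.97% with N18 at 12 cycles and 3.57% with 3A6 at 12 cycles, against 59.6% to 94.0% elsewhere. Lamin B1 domains held an island in 5% of cases at 30 cycles and 3.23% at 12 cycles, against 76.6% and 66.8%. In the KO lamin A/C libraries the share was 11.7% to 32.5%, against 69.2% to 88.5% elsewhere. On chromosome 12 it was 45.8% to 83.3% in KO, against 0% to 23.1% on chromosome 1 and 0% to 3.03% on chromosome 7.

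The size of the domains set against the other 17 chromosomes depended on the library. Their median length was 0.605 to 1.42 Mb over the 12 libraries, against 0.649 to 1.33 Mb. With LAP2alpha at 30 cycles they were longer, with a mean of 5.98 Mb against 2.38 Mb and a longest of 71.4 Mb against 32.6 Mb. With lamin B1 at 30 cycles the median was 0.886 Mb against 1.33 Mb, while the means were both 2.58 Mb. The summed EDD score per Mb of domain was higher than elsewhere in 11 of 12 libraries.

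Gene density was 8.47 genes per Mb on the 3 chromosomes and 8.40 on the other 17, with 6.21 on chromosome 1, 13.5 on chromosome 7 and 5.77 on chromosome 12. Islands were thus few on chromosomes where domains, scores and genes were present.

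The longest domains were those of LAP2alpha at 30 cycles. On chromosome 1 it ran over chr1:70345001-141702000, 71.4 Mb with 450 genes, and on chromosome 12 it ran over chr12:3201001-63426000, 60.2 Mb with 249 genes. On chromosome 7 the longest was chr7:121924001-152130000, 30.2 Mb with 428 genes. Domains of this size were few, since the median LAP2alpha domain at 30 cycles on the 3 chromosomes was 1.42 Mb.

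A gene was counted as inside if a library's domains covered 50% or more of it. LAP2alpha domains held 2934 of the 3990 genes at 30 cycles, or 73.5%, where 32.3% of all genes genome-wide were inside, and 2098 at 12 cycles, or 52.6%, where the genome-wide share was 35.9%. N18 domains at 30 cycles held 1201 genes in KO (genome-wide 28.5%) and 258 in WT (genome-wide 5.89%). At 12 cycles they held 1607 in KO (genome-wide 23.1%) and 1426 in WT (genome-wide 27.4%). For 3A6 the numbers were 590 in KO (genome-wide 12.6%) and 412 in WT (genome-wide 9.4%) at 30 cycles. At 12 cycles they were 888 in KO (genome-wide 10.7%) and 1342 in WT (genome-wide 21.1%). Lamin B1 domains, the gene-poor set, held 876 genes at 30 cycles (genome-wide 16.8%) and 358 at 12 cycles (genome-wide 7.78%). The share of genes inside was higher on the 3 chromosomes than on the other 17 in 12 of 12 libraries, which are not independent because inputs were shared. For lamin A/C at 30 cycles the gap was small. With N18 it was 30.1% against 28.2% in KO and 6.47% against 5.76% in WT. With 3A6 it was 14.8% against 12.1% in KO and 10.3% against 9.20% in WT.

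The genotype comparison asked where lamin A/C domains lay without LAP2alpha. On chromosome 7, KO cells had more domain coverage than WT cells in each of the 4 comparisons. N18 domains covered 29.4% of it in KO and 13.2% in WT at 30 cycles, and 32.0% in KO and 18.4% in WT at 12 cycles. With 3A6 they covered 31.1% in KO and 16.3% in WT at 30 cycles, and 28.2% in KO and 23.3% in WT at 12 cycles. On the other 17 chromosomes N18 covered 17.7% in KO and 8.98% in WT at 30 cycles, a KO to WT ratio of 1.97 beside 2.22 on chromosome 7, and 13.6% in KO and 13.7% in WT at 12 cycles. There 3A6 covered 18.9% in KO and 22.5% in WT at 30 cycles, and 11.9% in KO and 13.0% in WT at 12 cycles. The N18 and 3A6 comparisons of the same sonication share their inputs.

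Chromosome 12 also had higher coverage in KO. N18 domains covered 19.04% in KO and 7.95% in WT at 30 cycles, and 27.6% in KO and 13.8% in WT at 12 cycles. With 3A6 they covered 24.2% in KO and 21.0% in WT at 30 cycles, the smallest gap, and 26.9% in KO and 14.4% in WT at 12 cycles. The KO to WT ratio with N18 at 30 cycles was 2.40, beside 1.97 on the other 17 chromosomes. The 3A6 gap at 30 cycles, 3.27 percentage points, was 0.762 points when only domains scored above the library median were counted.

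On chromosome 1 the direction was mixed. N18 domains covered 10.6% in KO and 7.15% in WT at 30 cycles, but 22.5% in KO and 31.1% in WT at 12 cycles. With 3A6 they covered 6.69% in KO and 22.0% in WT at 30 cycles, and 25.3% in KO and 32.2% in WT at 12 cycles. Among domains scored above the library median, the 3A6 difference was -9.49 instead of -15.3 percentage points at 30 cycles and -10.5 instead of -6.87 at 12 cycles. The N18 difference at 30 cycles was 3.45 percentage points, and N18 coverage on the other 17 chromosomes was also higher in KO at that sonication, 17.7% in KO against 8.98% in WT. Taken as a ratio to those 17 chromosomes, chromosome 1 coverage in KO was lower than in WT, by a ratio difference of -0.196.

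**Figure D2:**
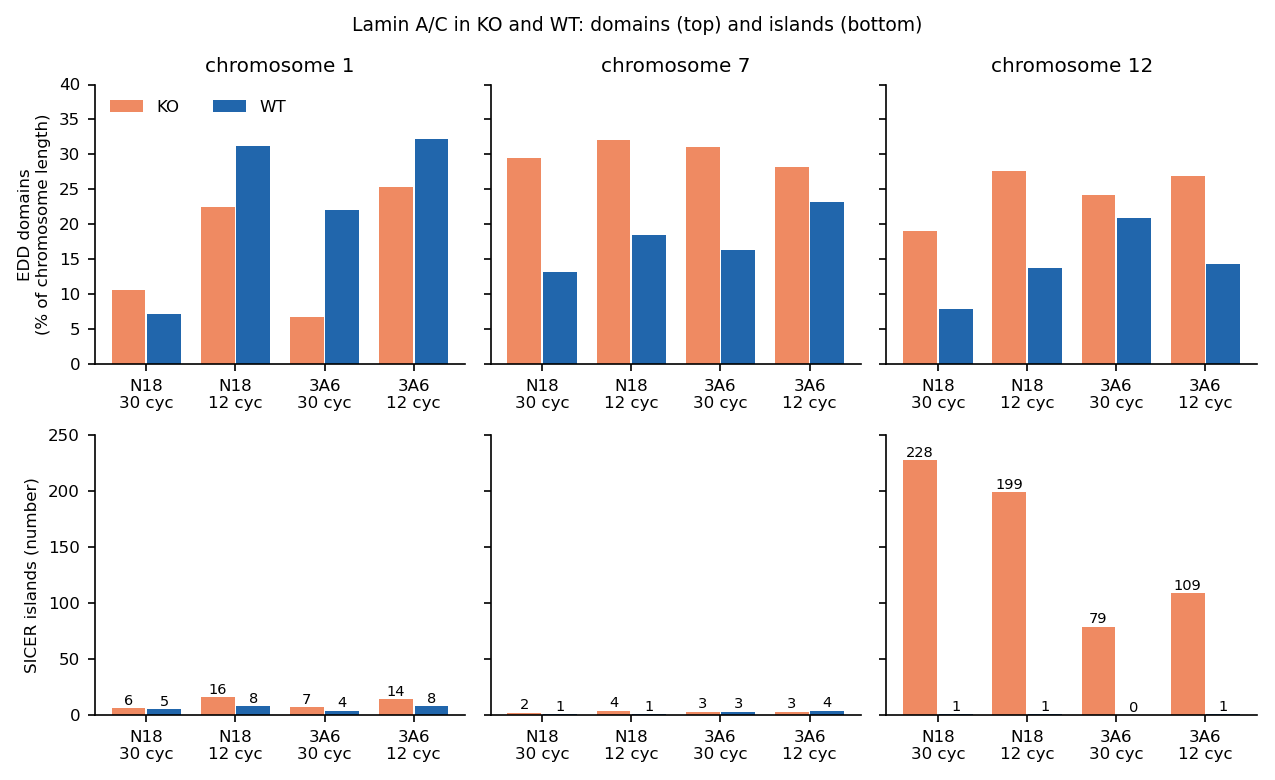
EDD domain coverage (top, percent of chromosome length) and number of SICER islands (bottom) on chromosomes 1, 7 and 12 in KO and WT cells, for each lamin A/C antibody and sonication. KO bars are the taller ones on chromosomes 7 and 12 in every domain panel, and islands were numerous only on chromosome 12 of KO cells, 79 to 228 per library.

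The islands of chromosome 12 in KO were 228 with N18 and 79 with 3A6 at 30 cycles, and 199 with N18 and 109 with 3A6 at 12 cycles, against 1 each in the WT libraries of N18 at both sonications and 3A6 at 12 cycles, and 0 with 3A6 at 30 cycles. They covered 4.61, 1.44, 4.39 and 2.26 Mb, taken in the same order. Their density of reads, 44.1 and 19.1 per kb with N18 at 30 and 12 cycles and 44.3 and 18.6 per kb with 3A6, was close to that of islands on the other 17 chromosomes in the same libraries, 49.6, 21.7, 49.0 and 21.3 per kb. They were shorter than islands elsewhere in the same libraries. Their mean length was 20.2 kb with N18 and 18.2 kb with 3A6 at 30 cycles, against 38.2 and 39.1 kb on the other 17 chromosomes, and 22.0 kb with N18 and 20.8 kb with 3A6 at 12 cycles, against 36.2 and 29.9 kb. The medians differed less, 18 to 21 kb against 22 to 23 kb. In all they covered 1.19% to 3.80% of the chromosome.

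These islands lay mostly toward the distal end, except with 3A6 at 30 cycles. When the chromosome was divided into 3 equal parts, the distal part held 60.1% of the islands with N18 and 39.2% with 3A6 at 30 cycles, and 65.3% with N18 and 66.1% with 3A6 at 12 cycles. Lamin B1 domains of 30 cycles, which covered 41.1% of chromosome 12, held 11.1% and 6.31% of the N18 island length at 30 and 12 cycles, and 29.3% and 26.2% of the 3A6 island length. Of 461 island loci on the chromosome, 456 were found in KO alone and 346 in a single library. Only 3 were in all 4 KO libraries and no WT library. These were chr12:71325001-71385000 at Pygl, the liver glycogen phosphorylase gene, and Trim9, chr12:88069001-88097000 at Gm6772, and chr12:115994001-116036000, which holds the printed chromosome 12 stretch.

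That last island had 2132 reads over 38 kb with 3A6 in KO cells at 30 cycles, 56.1 per kb, and 295 of the 300 bases are in capitals. The nearest protein-coding gene, Gm7112, was 515690 bases away. Most KO islands of chromosome 12 were not of this kind, since recurring words made up 4.32% of the loci found in KO alone, against 15.5% of the chromosome. Only part of their length lay in domains that were kept or gained in KO. With N18 at 30 cycles 53.2% lay in no domain of that antibody and sonication in either genotype, and with 3A6 it was 64.6%. At 12 cycles the shares were 27.4% with N18 and 37.2% with 3A6. Per Mb, islands were denser in kept and gained domains than outside. With N18 at 30 cycles there were 3.92 per Mb in kept, 4.86 in gained and 1.28 in no domain. With N18 at 12 cycles it was 5.99, 2.48 and 0.645, in the same order. With 3A6 it was 0.988, 0.723 and 0.657 at 30 cycles, a small gap, and 2.83, 1.27 and 0.502 at 12 cycles.

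In base pairs over the 3 chromosomes, lost means covered in WT alone, kept in both and gained in KO alone. N18 at 30 cycles gained 57.6 Mb, kept 31.3 and lost 12.6, and at 12 cycles gained 49.9, kept 76.7 and lost 29.5 Mb. For 3A6 at 30 cycles 48.1 Mb were gained, 41.9 kept and 51.7 lost, and at 12 cycles 58.8 were gained, 66.8 kept and 49.6 lost. The kept part was 71.3% of WT domain length with N18 at 30 cycles, where the other 17 chromosomes had 69.5%, and 44.7% with 3A6, where they had 44.4%. At 12 cycles the kept part was larger on the 3 chromosomes, 72.2% against 57.1% with N18 and 57.4% against 42.5% with 3A6. KO domains also covered more of them at 12 cycles, 26.9% against 13.6% with N18 and 26.7% against 11.9% with 3A6. These kept shares are therefore not on the same base.

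By genes, N18 at 30 cycles gained 1020 of 3990 (25.6%, genome-wide 24.4%), kept 181 (4.54%, genome-wide 4.13%) and lost 77 (1.93%, genome-wide 1.76%), all close to the genome-wide shares. At 12 cycles N18 gained 504 (12.6%, genome-wide 7.64%), kept 1103 (27.6%, genome-wide 15.5%) and lost 323 (8.10%, genome-wide 11.9%). With 3A6 at 30 cycles 394 genes were gained (9.87%, genome-wide 8.94%), 196 kept (4.91%, genome-wide 3.65%) and 216 lost (5.41%, genome-wide 5.75%). At 12 cycles 297 were gained (7.44%, genome-wide 5%), 591 kept (14.8%, genome-wide 5.7%) and 751 lost (18.8%, genome-wide 15.4%). The gene share kept at 12 cycles was thus well above the genome-wide one with both antibodies, while the 30-cycle shares were near it. Domain coverage at 12 cycles was likewise higher on the 3 chromosomes in both genotypes. Whether genes were kept beyond that coverage was not tested.

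What was gained differed between antibodies and sonications in gene content. Gained stretches held 17.7 genes per Mb with N18 at 30 cycles and 8.19 with 3A6, and at 12 cycles 10.1 with N18 and 5.05 with 3A6. Lost stretches held 6.11 genes per Mb with N18 and 4.18 with 3A6 at 30 cycles, and 10.9 with N18 and 15.1 with 3A6 at 12 cycles. At 12 cycles 3A6 thus lost gene-dense stretches and gained sparse ones, and N18 at 30 cycles did the opposite.

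The longest gained stretch of N18 at 30 cycles on chromosome 7 was chr7:147829001-152108000, 4.28 Mb with 114 genes. It holds the imprinted cluster of Igf2, a fetal growth factor, Ins2, Ascl2, Cd81, Kcnq1, Cdkn1c, an inhibitor of cyclin-dependent kinases, and Phlda2. The N18 domains covered 100% of it in KO and 0% in WT at 30 cycles, and 100% in KO and 60.4% in WT at 12 cycles. For 3A6 the shares were 4.11% in KO and 4.11% in WT at 30 cycles, and 10.0% in KO and 52.4% in WT at 12 cycles, so the antibodies did not place this stretch alike. LAP2alpha domains covered 100% of it at 30 and 99.7% at 12 cycles, and lamin B1 domains covered 3.08% at 30 and 2.57% at 12 cycles.

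On chromosome 12 the longest gained stretch of the same comparison was chr12:108977001-114488000, 5.51 Mb with 79 genes. It holds Begain, the imprinted genes Dlk1, a transmembrane Notch-family ligand, Rtl1, a retrotransposon-derived placental gene, and Dio3, a thyroid hormone deiodinase, and also Akt1 and Jag2. N18 covered 100% in KO and 0% in WT at 30 cycles, and 100% in both at 12 cycles. With 3A6 it was 21.6% in KO and 0% in WT at 30 cycles, and 100% in KO and 71.3% in WT at 12 cycles. Lamin B1 covered none of it.

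With 3A6 at 30 cycles the longest lost stretch of chromosome 7 was chr7:93445001-95062000, 1.62 Mb, with the glutamate receptor gene Grm5 and 14 olfactory receptor genes. The domains covered 100% of it in WT and in lamin B1 at 30 cycles, and 0% in KO. The longest gained stretch there was chr7:5016001-7172000, 2.16 Mb with 47 genes, among them the imprinted zinc finger genes Zim1 and Peg3 and their neighbour Usp29. On chromosome 12 the longest lost stretch, chr12:66396001-68728000, held Mdga2, a neuronal adhesion gene, and the longest gained one, chr12:61886001-63536000, held Lrfn5, also of synaptic adhesion. Gained and lost stretches of 3A6 at 30 cycles therefore both included long neuronal genes.

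At 12 cycles the longest lost stretch of 3A6 was chr1:88154001-94039000, 5.88 Mb with 73 genes, including Col6a3, a chain of the fibroblast matrix protein collagen VI, Agap1 and Hdac4. The domains covered 100% of it in WT and 0% in KO with 3A6, and 100% in KO and 90.5% in WT with N18. The longest gained stretch was chr1:100166001-105193000, 5.03 Mb with only 2 genes, one of them the neuronal Cntnap5b, and both lamin B1 libraries covered all of it. In this comparison the lost stretch was gene-rich and free of lamin B1, and the gained one was gene-poor and inside lamin B1 domains.

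The lamin B1 overlap was measured against the 30-cycle lamin B1 domains of WT cells, so KO lamin A/C was set against WT lamin B1. These domains covered 53.8% of chromosome 1, 33.1% of chromosome 7 and 41.1% of chromosome 12. At 30 cycles they held 74.0% of the 3A6 domain length on the 3 chromosomes in KO and 98.2% in WT, and 31.7% of the N18 domain length in KO and 76.7% in WT. At 12 cycles they held 63.2% of 3A6 in KO and 38.1% in WT, and 33.1% of N18 in KO and 27.7% in WT. The KO share was below the WT share at 30 cycles and above it at 12 cycles, with either antibody. LAP2alpha domains lay inside lamin B1 domains for 45.7% of their length at 30 and 28.3% at 12 cycles. The WT lamin A/C and lamin B1 libraries of a sonication share an input.

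Gained and lost lamin A/C stretches differed in lamin B1, in opposite directions at 30 and at 12 cycles. Stretches gained with N18 at 30 cycles lay 10.8% inside lamin B1 domains, kept ones 70.0% and lost ones 93.5%. With 3A6 at 30 cycles it was 53.2% for gained, 98.0% for kept and 98.4% for lost. At 12 cycles gained stretches lay 38.1% inside with N18 and 76.2% with 3A6, kept ones 29.9% and 51.7%, and lost ones 21.8% and 19.9%.

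**Figure D3:**
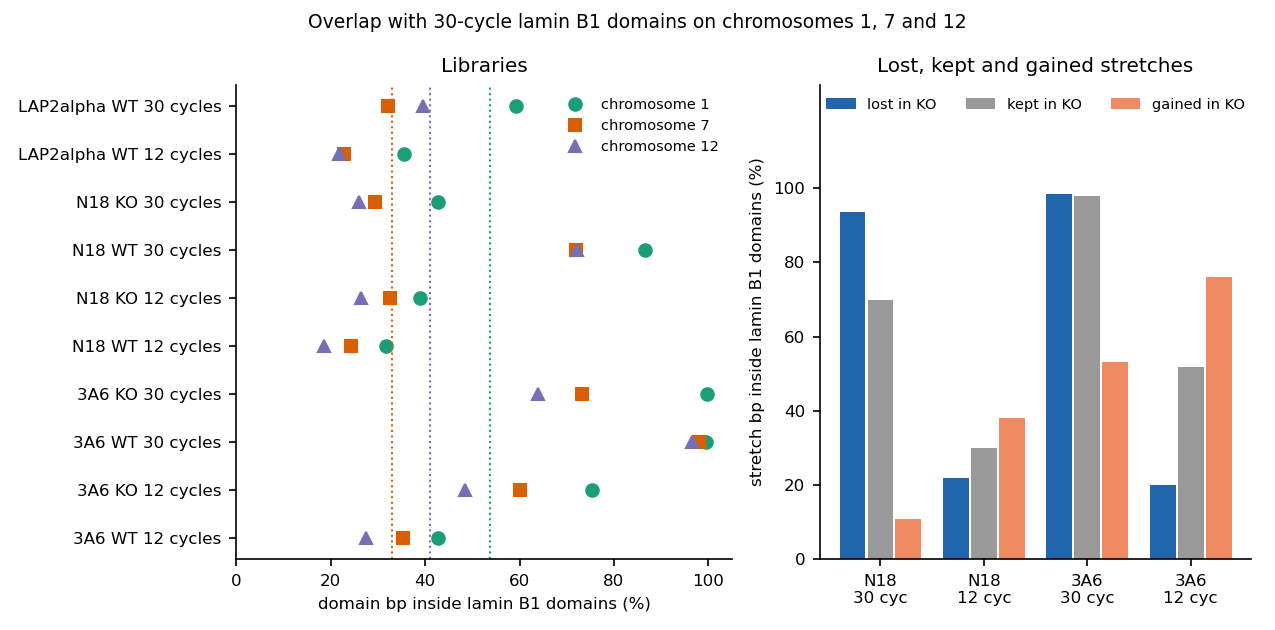
Left, share of domain length inside 30-cycle lamin B1 domains (percent) for each LAP2alpha and lamin A/C library on chromosomes 1, 7 and 12, with dotted lines at the share of each chromosome that lamin B1 covered (53.8%, 33.1% and 41.1%). Right, the same share for stretches of the 3 chromosomes gained, kept or lost in KO, which is lowest for gained stretches at 30 cycles and highest for them at 12 cycles.

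By chromosome, 3A6 showed the same directions on chromosomes 7 and 12, and on chromosome 1 at 12 cycles. On chromosome 1 lamin B1 domains held 99.7% of 3A6 domain length in KO and 99.4% in WT at 30 cycles, and 75.4% in KO and 42.7% in WT at 12 cycles. On chromosome 7 it was 73.1% in KO and 97.9% in WT at 30 cycles, and 60.2% in KO and 35.3% in WT at 12 cycles. On chromosome 12 it was 63.9% in KO and 96.5% in WT at 30 cycles, and 48.5% in KO and 27.4% in WT at 12 cycles. Chromosome 1 was the exception at 30 cycles, where both genotypes lay almost wholly inside lamin B1 domains.

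The sonication comparison asked which domains were called at 30 cycles, at 12 cycles or at both. For LAP2alpha, 168 Mb of the 3 chromosomes were in domains at 30 cycles alone, 143 Mb at both and 8.55 Mb at 12 cycles alone. The 30-cycle domains therefore held 94.4% of the 12-cycle ones, against 47.7% on the other 17 chromosomes. They covered 66.1% of the 3 chromosomes and 15.6% of the other 17, so these 2 shares are not on the same base. Lamin B1 behaved alike, with 96.0 Mb at 30 cycles alone, 110 Mb at both and 3.26 Mb at 12 cycles alone, so that 97.1% of the 12-cycle length was held, against 96.3% elsewhere.

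Lamin A/C domains moved between sonications. With N18 in KO, 12.1 Mb were covered at 30 cycles alone, 76.7 Mb at both and 49.8 Mb at 12 cycles alone, and in WT it was 16.9, 27.1 and 79.2 Mb. With 3A6 in KO it was 25.8 Mb at 30 cycles alone, 64.2 at both and 61.4 at 12 alone, and in WT 70.9, 22.7 and 93.6 Mb. The 30-cycle domains held 60.6% of the 12-cycle length in KO and 25.5% in WT with N18, and 51.1% in KO and 19.5% in WT with 3A6. On the other 17 chromosomes these shares were 73.0%, 31.7%, 63.8% and 14.1%, in the same order. With both antibodies, WT domains overlapped less between sonications than KO domains did. The N18 domains of 30 cycles covered 18.9% of the 3 chromosomes in KO and 9.33% in WT. The N18 shares are therefore not on the same base. For 3A6 the coverage was 19.1% in KO and 19.9% in WT.

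**Figure D4:**
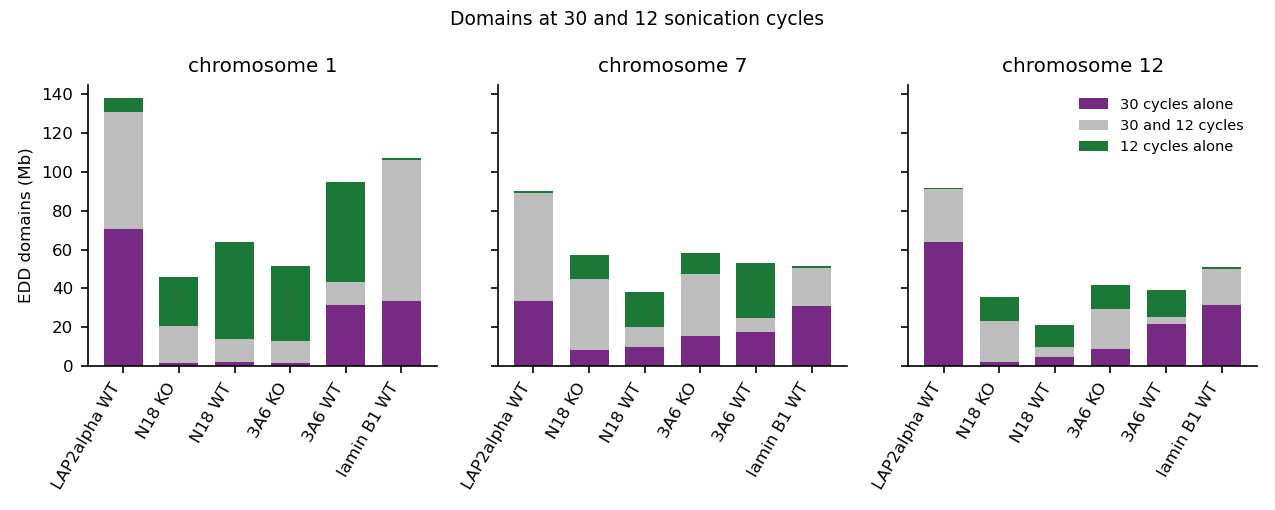
Length of chromosomes 1, 7 and 12 (Mb) in EDD domains at 30 cycles alone, at both sonications and at 12 cycles alone, for each antibody and genotype. LAP2alpha and lamin B1 have almost no 12-cycle-only length (8.55 and 3.26 Mb on the 3 chromosomes), whereas 3A6 in WT has 93.6 Mb.

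The stretches of 1 sonication alone also differed in lamin B1. For 3A6 in WT 98.5% of the 30-cycle-only length lay in lamin B1 domains and 23.7% of the 12-cycle-only length, and in KO it was 75.3% and 52.4%. For N18 in WT it was 85.5% and 12.8%, while in KO it was 26.4% and 34.1%, the other way round. For LAP2alpha it was 59.5% and 8.88%.

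By genes, LAP2alpha domains held 944 at 30 cycles alone (23.7%, genome-wide 12.1%) and 108 at 12 cycles alone (2.71%, genome-wide 15.7%). Lamin B1 domains held 554 (13.9%, genome-wide 9.58%) and 36 (0.902%, genome-wide 0.599%). With N18 in KO, 183 genes were inside at 30 cycles alone (4.59%, genome-wide 12.2%) and 589 at 12 cycles alone (14.8%, genome-wide 6.84%), and in WT 98 (2.46%, genome-wide 2.71%) and 1266 (31.7%, genome-wide 24.2%). With 3A6 in KO they were 192 (4.81%, genome-wide 7.35%) and 490 (12.3%, genome-wide 5.47%), and in WT 312 (7.82%, genome-wide 8.39%) and 1242 (31.1%, genome-wide 20.1%). Genes found at 12 cycles alone were thus a larger share of these chromosomes than of the genome for lamin A/C, and a smaller one for LAP2alpha.

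The longest LAP2alpha stretch of chromosome 1 at 30 cycles alone was chr1:107404001-119933000, 12.5 Mb with 23 genes. Among them were Cdh7, Cdh19 and Cntnap5a, and lamin B1 domains covered the stretch at both sonications. The longest at 12 cycles alone was chr1:182567001-184492000, 1.93 Mb with 29 genes, including Lbr, the lamin B receptor. With 3A6 in WT the longest chromosome 1 stretch at 30 cycles alone, chr1:101211001-106931000, held 2 genes in 5.72 Mb, and the longest at 12 cycles alone, chr1:87417001-95326000, held 115 genes in 7.91 Mb. In KO the 3A6 domains of 30 cycles alone reached chr7:67045001-69938000, with the imprinted Snrpn, Ndn, Magel2, Mkrn3 and Peg12 of the Prader-Willi region, and those of 12 cycles alone reached chr12:109351001-113157000, with Dlk1, Rtl1 and Dio3.

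Gene lists are given as counts, beside the share of all 3990 genes of the 3 chromosomes inside in the same library. That share was 73.5% at 30 and 52.6% at 12 cycles for LAP2alpha, and 22.0% at 30 and 8.97% at 12 cycles for lamin B1. For N18 it was 30.1% in KO and 6.47% in WT at 30 cycles, and 40.3% in KO and 35.7% in WT at 12 cycles. For 3A6 it was 14.8% in KO and 10.3% in WT at 30 cycles, and 22.3% in KO and 33.6% in WT at 12 cycles. The lists are short or clustered and were not tested.

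Of 22 imprinted genes on the 3 chromosomes, N18 domains held 14 in KO and 4 in WT at 30 cycles, 63.6% and 18.2% of the list, and 14 in KO and 6 in WT at 12 cycles, 63.6% and 27.3%. The 3A6 domains held 8 in KO and 4 in WT at 30 cycles, 36.4% and 18.2%, and 9 in KO and 7 in WT at 12 cycles, 40.9% and 31.8%. LAP2alpha held 18 at 30 and 15 at 12 cycles, 81.8% and 68.2%, and lamin B1 held 10 at 30 and 0 at 12 cycles. The list stood above the share of all genes in every KO library. In WT at 30 cycles it also stood above it, 18.2% beside 6.47% with N18 and 18.2% beside 10.3% with 3A6. In WT at 12 cycles it stood below it with N18, 27.3% beside 35.7%, and near it with 3A6, 31.8% beside 33.6%. Igf2 was inside with N18 in KO at both sonications, with 3A6 in KO at 12 cycles and with LAP2alpha at both sonications, and in no WT lamin A/C library.

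The imprinted Peg3, a zinc finger gene, was inside in KO and outside in WT with 3A6 at 30 cycles and with N18 at 12 cycles. With N18 at 30 cycles and with 3A6 at 12 cycles it was inside in both genotypes. Dlk1, Rtl1 and Dio3 were inside in KO and outside in WT with N18 at 30 cycles and with 3A6 at 12 cycles. They were inside in both genotypes with N18 at 12 cycles and in neither with 3A6 at 30 cycles. Snrpn, which encodes a splicing protein, was inside with 3A6 in KO at 30 cycles and in lamin B1 at 30 cycles only. Imprinted genes lost in KO were 1 with N18 at 30 cycles and 3 with 3A6 at 12 cycles, and 0 in the other comparisons.

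Of 24 fibroblast matrix genes, LAP2alpha held 19 at 30 and 10 at 12 cycles, 79.2% and 41.7% of the list, near the 73.5% and 52.6% of all genes of the 3 chromosomes. N18 held 1 in KO and 2 in WT at 30 cycles, and 5 in KO and 7 in WT at 12 cycles, while 3A6 held 0 in KO and 2 in WT at 30 cycles, and 1 in KO and 9 in WT at 12 cycles. The 9 genes in WT with 3A6 at 12 cycles were 37.5% of the list, near the 33.6% of all genes, and the single gene in KO was 4.17%, against 22.3%. Lamin B1 held 4 at 30 and 2 at 12 cycles. With N18 at 12 cycles 3 of the matrix genes were lost in KO, 4 kept (Col6a3, Igfbp2, Igfbp5 and Tgfb1) and 1 gained (Ltbp4). With 3A6 at 12 cycles 9 were lost, 0 kept and 1 gained. Fmod and Prelp, neighbouring genes of connective tissue proteoglycans, were inside in WT and not in KO at 12 cycles with both antibodies. The inputs of both antibodies are shared. Lamb3 did the same, and so did Btg2, an antiproliferative gene near Fmod. Col3a1 and Col5a2, genes of fibrillar collagens, were at 0% in all 12 libraries.

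Genes of a list called long neuronal genes, whose expression in neurons was not checked, were mostly inside lamin B1 domains at 30 cycles. Of 30 such genes, lamin B1 held 23 at 30 and 15 at 12 cycles, 76.7% and 50% of the list, and LAP2alpha held 17 at 30 and 3 at 12 cycles, 56.7% and 10%. These are above the shares of all genes for lamin B1 and below them for LAP2alpha. The 3A6 domains held 10 in KO and 13 in WT at 30 cycles, and 12 in KO and 3 in WT at 12 cycles, and N18 held 2 in KO and 2 in WT at 30 cycles, and 4 in KO and 2 in WT at 12 cycles. Nrxn3, a presynaptic adhesion gene of 1612 kb, was covered to 31.2% in KO and 89.9% in WT with N18 at 30 cycles, and to 38.7% in KO and 100% in WT with 3A6. At 12 cycles it was at 19.6% in KO and 0% in WT with N18, and at 40.7% in KO and 0% in WT with 3A6.

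**Figure D5:**
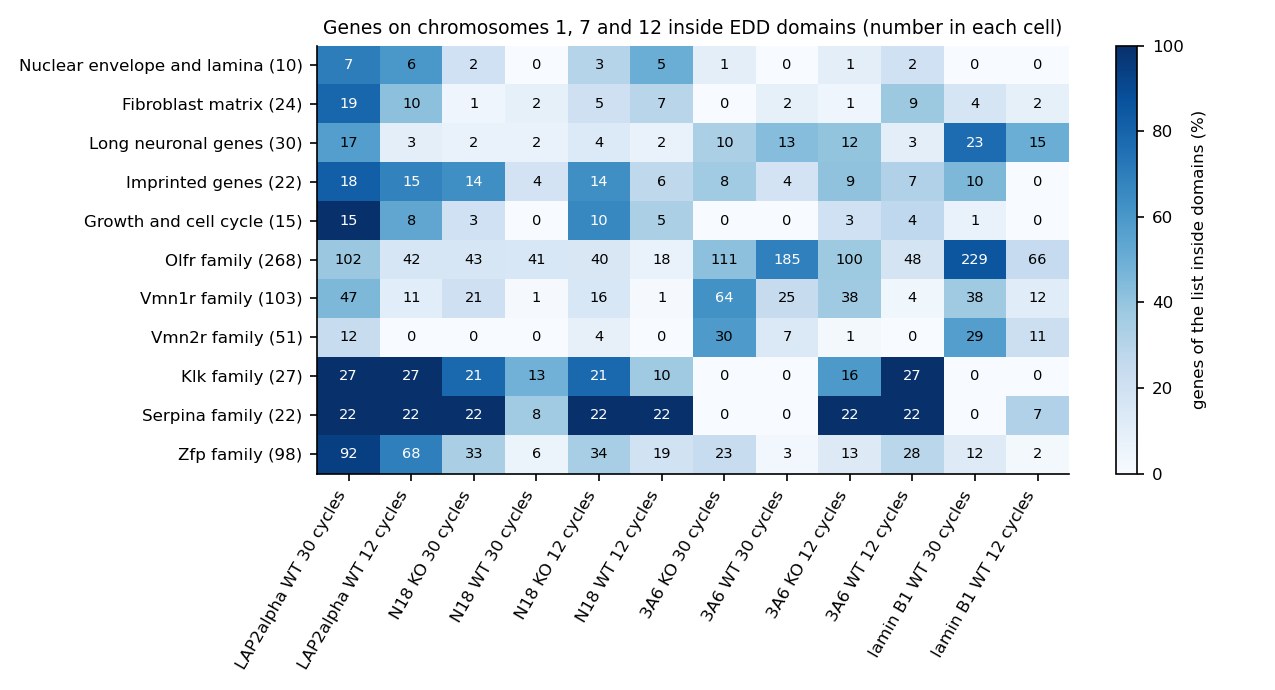
Genes of each list inside EDD domains on chromosomes 1, 7 and 12 (numbers in cells) in the 12 libraries, with colour giving the percent of the list. All kallikrein and Serpina genes are inside LAP2alpha domains, and olfactory and neuronal genes are mostly inside lamin B1 domains of 30 cycles (229 of 268 and 23 of 30).

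Of 10 nuclear envelope and lamina genes, LAP2alpha held 7 at 30 and 6 at 12 cycles, 70% and 60% of the list beside 73.5% and 52.6% of all genes, and lamin B1 held 0 at either sonication. N18 held 2 in KO and 0 in WT at 30 cycles, and 3 in KO and 5 in WT at 12 cycles, and 3A6 held 1 in KO and 0 in WT at 30 cycles, and 1 in KO and 2 in WT at 12 cycles. Lbr was inside with LAP2alpha and with N18 in WT at 12 cycles only, and Tor1aip1 and Tor1aip2, genes of partners of torsin at the envelope, were inside with LAP2alpha alone. Of 15 growth and cell cycle genes, LAP2alpha held 15 at 30 and 8 at 12 cycles, 100% and 53.3% of the list. N18 held 3 in KO and 0 in WT at 30 cycles, and 10 in KO and 5 in WT at 12 cycles, where 66.7% in KO stood above the 40.3% of all genes and 33.3% in WT near the 35.7%. In 3A6 it was 0 in KO and 0 in WT at 30 cycles, and 3 in KO and 4 in WT at 12 cycles, and lamin B1 held 1 at 30 and 0 at 12 cycles.

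Clustered gene families tend to be inside or outside as blocks, so their members are not separate observations. Of 268 olfactory receptor genes, 3A6 held 111 in KO and 185 in WT at 30 cycles, and 100 in KO and 48 in WT at 12 cycles, while lamin B1 held 229 at 30 and 66 at 12 cycles. The 3A6 shares were 41.4% in KO and 69.0% in WT at 30 cycles, beside 14.8% and 10.3% of all genes, and those of lamin B1 were 85.4% at 30 and 24.6% at 12 cycles. N18 held 43 in KO and 41 in WT at 30 cycles, and 40 in KO and 18 in WT at 12 cycles, and LAP2alpha held 102 at 30 and 42 at 12 cycles. Of 103 Vmn1r genes, type 1 vomeronasal receptors for pheromones, 3A6 held 64 in KO and 25 in WT at 30 cycles, 62.1% and 24.3%, and 38 in KO and 4 in WT at 12 cycles. N18 held 21 in KO and 1 in WT at 30 cycles, and 16 in KO and 1 in WT at 12 cycles. Of 51 Vmn2r genes, 3A6 held 30 in KO and 7 in WT at 30 cycles, 58.8% and 13.7%, and 1 in KO and 0 in WT at 12 cycles. Chemoreceptor genes thus did not move one way with genotype, since 3A6 at 30 cycles covered fewer olfactory but more vomeronasal receptor genes in KO.

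The families of kallikrein, Serpina and numbered zinc finger genes had most of their genes in LAP2alpha domains. Of 27 kallikrein (Klk) genes, which encode secreted serine proteases, N18 held 21 in KO and 13 in WT at 30 cycles, and 21 in KO and 10 in WT at 12 cycles, 3A6 held none at 30 cycles, and 16 in KO and 27 in WT at 12 cycles, and lamin B1 held none. In N18 the kallikrein shares were 77.8% in KO and 48.1% in WT at 30 cycles, beside 30.1% and 6.47% of all genes. The 22 Serpina genes of chromosome 12, serine protease inhibitors, were all inside with LAP2alpha at both sonications and with N18 in KO at both, where WT had 8 at 30 and 22 at 12 cycles. The 3A6 domains held none of them at 30 cycles and 22 at 12 cycles in both genotypes, and lamin B1 held 0 at 30 and 7 at 12 cycles, the second of which is 31.8%, beside 8.97% of all genes. Of 98 numbered zinc finger (Zfp) genes, LAP2alpha held 92 at 30 and 68 at 12 cycles, 93.9% and 69.4%. N18 held 33 in KO and 6 in WT at 30 cycles, and 34 in KO and 19 in WT at 12 cycles, and 3A6 held 23 in KO and 3 in WT at 30 cycles, and 13 in KO and 28 in WT at 12 cycles. Lamin B1 held 12 Zfp genes at 30 and 2 at 12 cycles, 12.2% and 2.04%. Of 19 Mrgpr genes, receptors of itch and pain neurons, lamin B1 held 11 at 30 and 9 at 12 cycles, 57.9% and 47.4%, and LAP2alpha held 17 at 30 and 3 at 12 cycles. N18 held 8 Mrgpr genes in KO and 3 in WT at 30 cycles, and 4 in KO and 2 in WT at 12 cycles, while 3A6 held 8 in KO and 4 in WT at 30 cycles, and 10 in KO and 2 in WT at 12 cycles.

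Few places were in a domain everywhere. Stretches in all 12 libraries made up 1.26% of the 3 chromosomes and 0.407% of the other 17, and stretches in none made up 16.8% and 39.4%. The longest shared one on chromosome 1 was chr1:130570001-131142000, with no gene in it, on chromosome 7 chr7:144793001-145750000 at Tcerg1l, and on chromosome 12 chr12:107844001-108845000 at 3110018I06Rik. The longest free ones were chr1:163174001-167453000, 4.28 Mb with 44 genes including Prrx1, a mesenchymal homeobox gene, chr7:116655001-120626000, 3.97 Mb with 35 genes, and chr12:79013001-81587000, 2.57 Mb with 23 genes. Altogether 19 genes of the 3990 were inside in all 12 libraries and 572 in none. Libraries of the same genotype and sonication share inputs, so the 12 lists are not independent.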

How the data were processed

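ChIP-seq region lists of 12 libraries from immortalized mouse dermal fibroblasts were used. Another 12 samples of the series, 4 inputs and 8 histone mark libraries, were not analysed here. The submitters' processing notes name cutadapt, Bowtie2 2.1.0, Picard, SICER 1.1 and the build mm9. The authors filtered reads on mapping quality, removed duplicates and reduced ChIP reads to the input's number before calling. The deposited island lists hold counts, the reads in each SICER island, neither scaled nor corrected. In the deposited EDD lists each domain has a score given by the authors' caller. Sequenced depth was not used. The reads inside islands (3989494 to 13601739 per library) depend on enrichment and calling as well, so they do not measure depth. Counts limit which regions can be called.

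Overlaps were taken at 1 kb resolution, after adding 1 base to island ends, and positions are counted from 1 (0 regions past a chromosome end). A gene, 1 record per symbol and the longest one, was taken from 22208 protein-coding genes of a GENCODE annotation of NCBIM37, and was inside when at least 50% covered. Percentages given as genome-wide are over all 20 chromosomes. Regions named are the longest domains, the longest lost, kept, gained, sonication-specific, shared and free stretches of each chromosome, and the islands with the most reads. Within them the listed genes or the 2 longest genes are named, and other genes and loci were named after their values were seen. The members and gene lists were chosen with earlier results of these data known. With 1 library per group nothing was tested. Recurring 31-base words were counted within a chromosome. Scripts ran in Python 3.11.15 with numpy 2.4.6, scipy 1.17.1 and matplotlib 3.10.9 and were tested on simulated data. Alternatives were other domain and island thresholds, SICER islands in place of domains, other gene rules and another lamin B1 list.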

Additional observations from a re-analysis of the deposited data

Results flagged for a closer look

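The difference between KO and WT in domain coverage of chromosome 1 ran in opposite directions in otherwise matched comparisons. At 30 cycles it was 3.45 percentage points with N18 and -15.3 percentage points with 3A6. With N18 it was 3.45 percentage points at 30 cycles and -8.66 percentage points at 12 cycles. With 1 library per group neither difference was tested.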

How the results depend on the processing

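No paired analysis was possible because each group holds 1 library, and no library could be left out for the same reason. Shares were compared with exact 95% binomial intervals that treat the domains of a library as trials. Domains are not replicates and a share of length is not a count of domains, so these intervals are only a loose guide. Counts were compared by whether they stayed within 1.5 times. Domains of at least 500 kb, whole domains at least 50% covered and chromosome length without unread bases moved no share past its interval, and other gene rules moved no gene count by more than 1.5 times. The intervals are wide, so staying inside shows little. For LAP2alpha at 30 cycles the lamin B1 share of 45.7% had an interval of 32.2% to 60.5%. Counting whole domains gave 32.7%, which still lay inside. With SICER islands in place of domains, WT length kept in KO at 12 cycles was 89.0% with N18 and 86.9% with 3A6, over few islands, and the 12-cycle length inside 30-cycle islands was 68.1% for LAP2alpha, 23.3% for N18 in KO and 14.2% for 3A6 in KO. Against 12-cycle lamin B1 domains, the lamin B1 share at 30 cycles was 27.4% for LAP2alpha, 18.97% for N18 in KO and 47.7% in WT, and 47.4% for 3A6 in KO and 71.3% in WT. At 12 cycles it was 17.3% for LAP2alpha, 20.4% for N18 in KO and 17.5% in WT, and 46.4% for 3A6 in KO and 25.4% in WT. That list holds less of each chromosome. With domains scored above the library median, the lamin B1 share was 16.2% for LAP2alpha at 12 cycles, 16.1% in KO and 54.5% in WT for N18 at 30 cycles, 20.5% in KO and 17.7% in WT for N18 at 12 cycles, and 26.1% for 3A6 in WT at 12 cycles. Islands above the library's median reads numbered 8 for LAP2alpha at 30 cycles, 68 in KO and 4 in WT for N18 at 30 cycles, 59 in KO and 4 in WT for N18 at 12 cycles, 11 in KO and 4 in WT for 3A6 at 30 cycles, 31 in KO and 5 in WT for 3A6 at 12 cycles, and 6 at 30 and 5 at 12 cycles for lamin B1. With domains scored above the library median, an alternative chosen after seeing the data for this result, the 3A6 difference was 0.762 points on chromosome 12 and -9.49 on chromosome 1 at 30 cycles, and -10.5 on chromosome 1 at 12 cycles, where all domains gave 3.27, -15.3 and -6.87. The N18 difference on chromosome 1 at 30 cycles, 3.45 points, became -0.196 as a ratio to the other 17 chromosomes, also chosen after seeing the data. The cause was not tested in any of these.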
